A study of Mus musculus with 36 samples.

Results

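The comparison described here is that of *Ift88*-depleted with control cells before any cytokine was added: 3 libraries from cells transfected with a non-targeting siRNA pool (NT) and 3 from cells transfected with an siRNA pool against *Ift88* (IFT88siRNA), all kept in medium only (0 h). These are 6 of the 36 libraries of the study, chosen by the sample labels alone, and the other 30 libraries come from the same 2 siRNA groups after 1, 2, 4, 8 or 24 h with 10 ng/ml of the inflammatory cytokine IL-1β. The cells were a wild-type mouse fibroblast-like chondrocyte line that is conditionally immortalised and was released from immortalisation by culture without interferon-γ, in low-glucose medium with fetal calf serum. The labels give the siRNA at 50 nM, which differs from the concentration in the study's methods, with transfection by lipofection before confluence and the time course begun 48 h later. Messenger RNA was selected by its poly(A) tail and sequenced as paired-end reads. One line was used, the siRNAs are pools, and neither the labels nor the methods say whether replicates were separate cultures, so the p-values measure the spread between these libraries, which may in part be technical.

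IFT88 is a subunit of the IFT-B complex, which with IFT-A carries cargo along the microtubules of the primary cilium, driven outwards by kinesin-2 and back by dynein-2. The primary cilium is a single antenna of the cell surface that most cells assemble when they leave the cell cycle, and in vertebrates Hedgehog signals pass through it. In cartilage, IFT88 and the cilium are known for their part in growth plate organisation and in the sensing of load and of Indian hedgehog. The study compared the groups at 0 h as the starting state on which the response to IL-1β was then measured.

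Counts on genes summed to between 20223532 and 21906468 in the NT libraries and between 25864798 and 26699475 in the IFT88siRNA libraries, so the groups did not overlap in depth. Depth bears on counting error alone, and since no molecular identifiers were used, amplified copies of a molecule were counted as separate reads. The labels name 3 lanes of a flow cell and assign no library to a lane, so a batch could not be examined. Counts of NT replicates differed from each other by a chi-square of 2.21 to 2.61 per degree of freedom, where 1 is counting error alone. IFT88siRNA replicates 1 and 3 gave 1.88 with each other, whereas replicate 2 gave 6.07 and 4.62 with them and stood apart. Values that rest on replicate 2 are given with and without it. Of the markers of the labelled cell type, *Col11a1*, *Sox9*, *Comp*, *Col2a1* and *Hapln1* were present, but 5 of the 10 chondrocyte markers, the defining gene *Acan* among them, were under 1 TPM (transcripts per 1000000) in all 6 libraries. The fibroblast markers summed to 4837 to 4975 TPM in NT and 5209 to 5340 TPM in IFT88siRNA. The chondrocyte markers summed to 80.8 to 86.3 and 91.4 to 96.9 TPM. Sums of the leukocyte, endothelial, epithelial, osteoblast, skeletal muscle and adipocyte markers were all under 17 TPM in every library.

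*Ift88* (ENSMUSG00000040040, chromosome 14, 57424062 to 57517936 of GRCm38, plus strand) was examined first as a check of the labels. Expression is given as CPM, the count per 1000000 reads after scaling between libraries with edgeR's TMM method. It was 10.1, 9.58 and 10.3 CPM in NT replicates 1 to 3 and 2.86, 3.19 and 3.12 CPM in the IFT88siRNA replicates, so that every IFT88siRNA library lay below every NT library. The remaining level was 30.5% of NT, a log2 fold change of −1.71 (standard error 0.109, adjusted p = 3.26e-10). Among falls with a mean of at least 50 counts it was the largest, and by adjusted p it ranked 6 among all genes tested.

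Of 15274 genes with enough counts to be tested at 0 h, 341 genes (2.23%) were called, which here means a Benjamini-Hochberg adjusted p-value under 0.05 in edgeR's two-sided quasi-likelihood test and a fold change over 1.5. Falls outnumbered rises: 103 genes (0.674%) were higher in IFT88siRNA and 238 (1.56%) were lower. The differences were small, with a median absolute log2 fold change of 0.81 in the called genes and 0.11 in all genes tested. Over 2-fold changes were found in 19 of the rises and 75 of the falls. At an adjusted p under 0.05 and any fold, the count was 2979 genes (19.5%), of which 1538 were higher (10.1%) and 1441 lower (9.43%). The 3 IFT88siRNA values lay wholly beyond the 3 NT values in 334 of the 341 called genes and in 35.4% of all genes tested. Most falls were of genes with few counts: among the 12097 genes with a mean of at least 50 counts, 66 rose and 81 fell, and among those under 50 counts, 37 rose and 157 fell. DESeq2 called 66 genes higher and 99 lower, and gave no adjusted p to 108 of the 341. Exons of 28 of the 62 genes named by rule overlap those of another gene, on the same strand in 7 of them. The counting used no strand, and its default settings assign reads of shared exon stretches to neither gene. The counts of these genes therefore leave such stretches out. The partners include *Copg2* for *Mest*, *Ccdc85b* for *Fosl1*, *Far2* for *Ergic2*, *Ctnna1* for *Lrrtm2* and *Cnbd2* for *Scand1*.

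**Figure D1:**
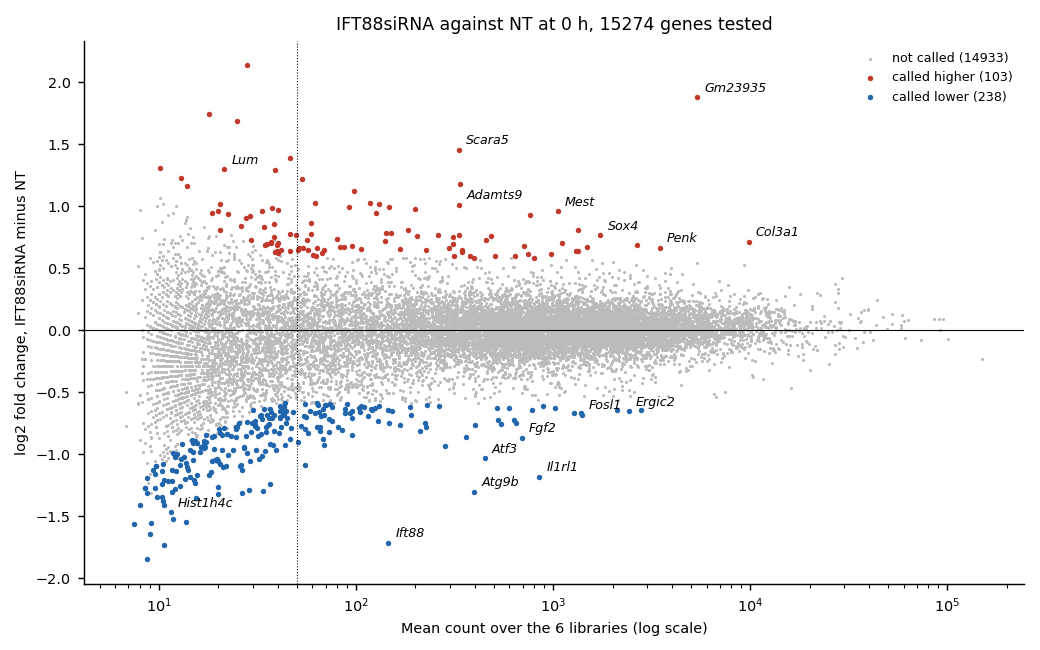
Difference between IFT88siRNA and NT at 0 h for each of the 15274 genes tested, as the log2 fold change (y axis) against the mean count over the 6 libraries (x axis, log scale). Red points are the 103 genes called higher and blue points the 238 called lower, and the dotted line marks 50 counts, to the left of which 157 of the falls lie.

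Apart from *Ift88* itself, few genes of the intraflagellar transport machinery had values far from the NT level. *Ift88* was the only called gene of 17 tested IFT-B subunits, a share to be read against the 2.23% of all genes, and the median of the 17 log2 fold changes was −0.00026. *Ift46*, *Ift52* and *Ift81*, which like IFT88 belong to the core of the complex, had log2 fold changes of 0.16, 0.086 and −0.00026 (adjusted p = 0.0218, 0.306 and 0.998). None of 16 tested genes of IFT-A, dynein-2 and kinesin-2 was called. *Dync2li1*, the light intermediate chain of dynein-2, was at 17.6, 17.6 and 19.3 CPM in NT and 21.3, 22.4 and 23.2 CPM in IFT88siRNA, with no overlap and a log2 fold change of 0.30 (adjusted p = 0.00341), below the fold threshold. *Kif17*, a ciliary kinesin, had the largest difference of this list at −1.04, on a mean of 10.3 counts, and did not pass the test (adjusted p = 0.0573). Of the BBSome, an adaptor for ciliary membrane cargo, and its chaperonins, 0 of 13 tested genes were called, and of the transition zone, basal body and ciliary membrane genes 0 of 29. In those 2 lists together with IFT-A and the motors, 4 genes were higher and 5 lower at an adjusted p under 0.05 and any fold. Of all genes, 10.1% were higher and 9.43% lower at any fold. With 2.23% of all genes called, lists of this size would hold few calls or none.

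Set against 2.23% of all genes, 1 of 16 tested genes of the Hedgehog pathway was called. This was *Hhip*, a secreted inhibitor that binds Hedgehog ligands and is a target of the pathway, which fell from 0.887, 0.639 and 0.98 CPM to 0.452, 0.428 and 0.468 CPM (log2 fold change −0.88, adjusted p = 0.0464). It had a mean of 14.7 counts, and its call was lost in 5 of the 6 repeats that left out a library. *Gli1*, the transcription factor most often read as the output of the pathway, was at 0.9804, 1.004 and 0.98 CPM in NT and 0.715, 0.739 and 0.897 CPM in IFT88siRNA. Every IFT88siRNA library lay below every NT library, which held in either direction for 35.4% of all genes tested. The log2 fold change of −0.33 did not pass the test (adjusted p = 0.392). Several genes on the receiving side were higher at an adjusted p under 0.05 without reaching the fold threshold. The co-receptor *Gas1* was at 137, 137 and 137 CPM in NT and 196, 206 and 180.5 CPM in IFT88siRNA (0.51, adjusted p = 7.04e-08). *Smo*, the signal transducer of the pathway, was at 0.37, its receptor *Ptch1* at 0.33, the co-receptor *Boc* at 0.37 and the transcription factor *Gli2* at 0.48. Altogether 7 of the 16 were higher and 1 lower at any fold, where 10.1% and 9.43% of all genes were, and the median of the list was 0.068 against −0.0021 for all genes.

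Of 27 tested genes of the FGF and EGF pathways, 4 fell and 0 rose, where 1.56% of all genes fell. They were *Fgf2* and the EGF receptor ligands *Hbegf*, *Ereg* and *Areg*. *Fgf2* (ENSMUSG00000037225, chromosome 3, 37348346 to 37410108), basic fibroblast growth factor, which chondrocytes store in their pericellular matrix, was at 39.8, 39.7 and 37.6 CPM in NT and 23.2, 20.7 and 20.5 CPM in IFT88siRNA. The groups did not overlap, and the log2 fold change was −0.86 (standard error 0.0616, adjusted p = 1.67e-09). Its exons overlap those of *Nudt6* on the opposite strand, and since the counting used no strand, reads of the shared stretch were counted for neither gene. *Hbegf*, heparin-binding EGF-like growth factor, was at 68.2, 68.2 and 68.3 CPM in NT and 45.5, 40.2 and 42.9 CPM in IFT88siRNA (−0.67, standard error 0.0508, adjusted p = 4.35e-09). The NT libraries were almost equal for this gene and each lay above all IFT88siRNA libraries. *Ereg* (epiregulin) was at 71.4, 75.5 and 73.9 CPM in NT and 50.5, 41.2 and 47.6 CPM in IFT88siRNA (−0.66, adjusted p = 3.2e-08), the lowest value being that of replicate 2, without which the log2 fold change was −0.58, just under the threshold. *Areg* (amphiregulin), its neighbour on chromosome 5, was at a low level, with 1.96, 2.099 and 2.45 CPM and 1.05, 1.05 and 1.33 CPM (−0.92, adjusted p = 0.00214). The other tested ligands of the EGF family, *Btc*, *Tgfa* and *Nrg1*, were at −0.42, 0.027 and −0.18 (adjusted p = 0.166, 0.957 and 0.00561). *Fgf7*, *Fgf10* and *Fgf18* were at −0.12, −0.12 and 0.29 (adjusted p = 0.1098, 0.0681 and 0.232).

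None of the 12 tested *Dusp*, *Errfi1*, *Etv*, *Spred* and *Spry* genes, inhibitors or targets of these pathways singled out after their values were seen, was called, and at an adjusted p under 0.05 and any fold 6 were lower and 0 higher. *Errfi1*, an intracellular inhibitor of the EGF receptor, had a log2 fold change of −0.56 (adjusted p = 9.08e-09). *Dusp6*, a phosphatase of the MAP kinase ERK, was at −0.45 (adjusted p = 1.29e-07), *Spry2*, a Sprouty inhibitor, at −0.54 (adjusted p = 1.5e-05) and the transcription factor *Etv4* at −0.52 (adjusted p = 1.52e-07). Of 5 tested receptors, 3 were higher at any fold and none was called. *Fgfr1*, *Fgfr2* and *Fgfr3* were at 0.21, 0.25 and 0.50 (adjusted p = 0.000571, 0.000148 and 0.000303). *Egfr* was at −0.0098 (adjusted p = 0.907) and *Fgfr4* at −0.42 (adjusted p = 0.375). In all, 11 members of the list were lower and 3 higher at any fold, where 9.43% and 10.1% of all genes were, and the median of the list was −0.18.

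**Figure D2:**
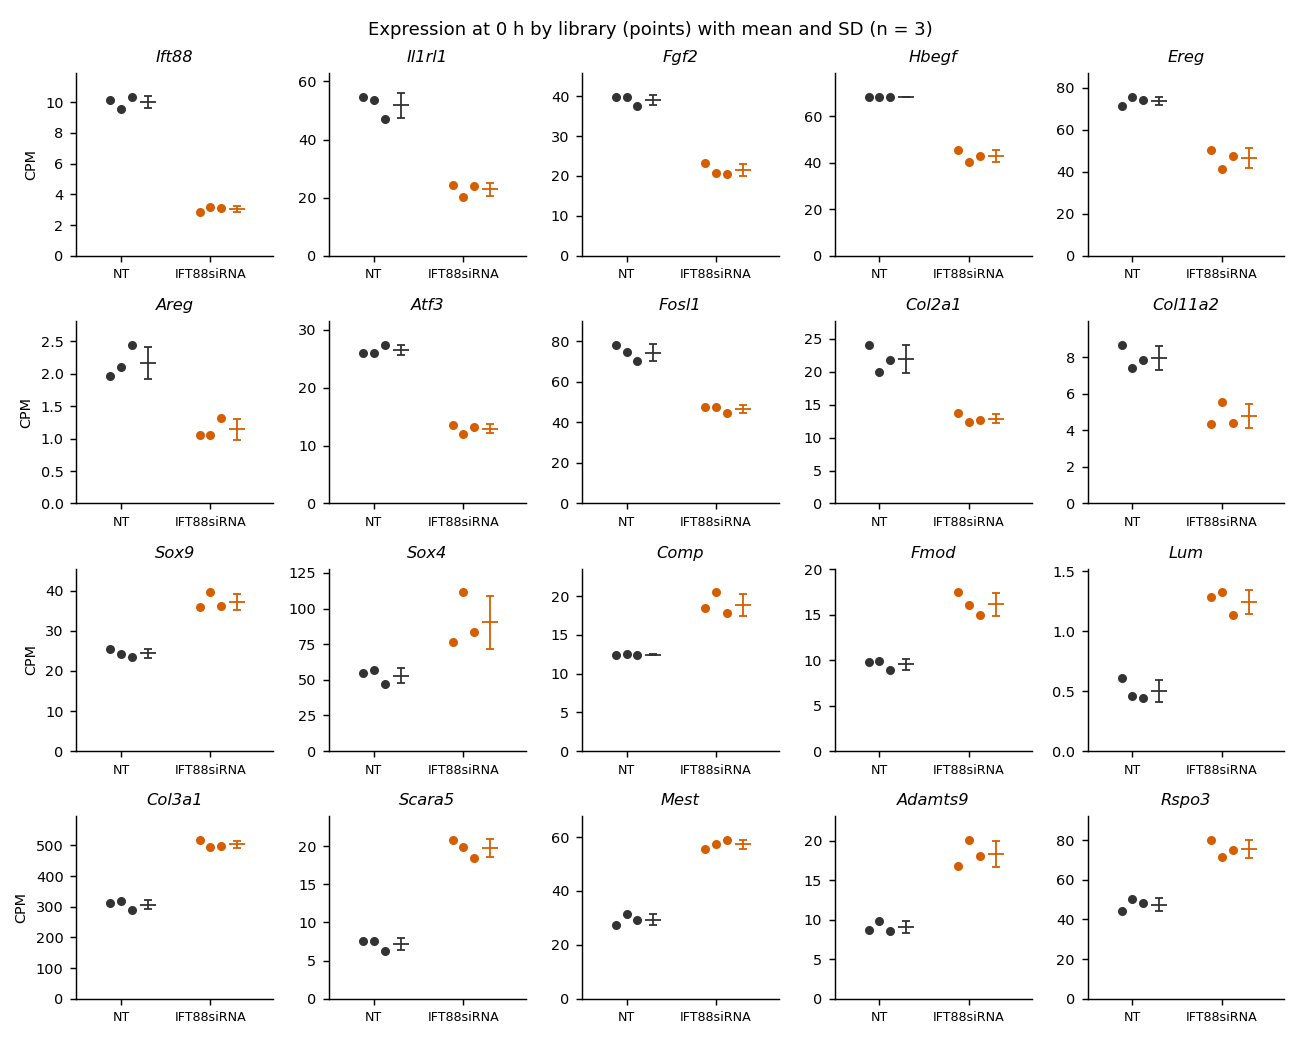
Expression at 0 h in CPM (y axis, from 0) of 20 genes in each NT (black) and IFT88siRNA (orange) library, replicates 1 to 3 from left to right, with the mean and SD (n = 3) beside the points. In each of the 20 panels the 3 IFT88siRNA points lie wholly below or wholly above the 3 NT points, and replicate 2 of IFT88siRNA stands out for *Sox4*.

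Immediate early genes, which are transcribed within minutes of growth factor or stress signals, were lower as a group of small differences. Of 23 tested, 1 was called, where 2.23% of all genes were. At an adjusted p under 0.05 and any fold, 16 were lower and 0 higher, against 9.43% and 10.1% of all genes. Only *Ier5* and *Jund* had values above 0, and the median of the list was −0.28. The called gene was *Fosl1* (ENSMUSG00000024912, chromosome 19, 5447547 to 5455946), the AP-1 subunit FRA-1. It was at 78.2, 74.8 and 70.2 CPM in NT and 47.7, 47.3 and 44.4 CPM in IFT88siRNA (−0.68, standard error 0.0509, adjusted p = 3.92e-09). *Egr1*, a zinc-finger factor induced through ERK, was at 332, 336 and 329 CPM in NT and 242, 222 and 236 CPM in IFT88siRNA (−0.51, adjusted p = 1.02e-08). The AP-1 subunits *Jun* and *Fos* were at −0.50 (adjusted p = 2.61e-08) and −0.50 (adjusted p = 2.01e-05), both without overlap between the groups.

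Stress programmes held few calls. *Atf3* (ENSMUSG00000026628, chromosome 1, 191170296 to 191218039), a transcription factor induced by amino acid shortage and other stress, was at 25.96, 25.9 and 27.4 CPM in NT and 13.5, 12.02 and 13.2 CPM in IFT88siRNA (−1.03, standard error 0.0698, adjusted p = 9.11e-10), and every IFT88siRNA library lay far below every NT library. *Slc7a11*, the cystine and glutamate exchanger and a target of ATF4, was at 8.54, 12 and 9.95 CPM and 5.95, 6.22 and 6.9 CPM (−0.68, adjusted p = 0.000184), a call that was lost without NT replicate 2 and on log2(TPM + 1), at −0.40. They were the 2 called of 32 tested genes of the ATF4 and ER stress list, in which 15 were lower and 1 higher at any fold and the median was −0.074. None of 20 tested p53 targets was called, and 12 were lower and 1 higher at any fold. Of all genes, 2.23% were called, and 9.43% were lower and 10.1% higher at any fold. *Mdm2*, the ubiquitin ligase that p53 induces against itself, was at 488, 491 and 499 CPM in NT and 394, 377 and 384 CPM in IFT88siRNA (−0.36, adjusted p = 4.45e-07).

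Of 18 tested genes of the IL-1 receptor family and its first signalling steps, 1 was called, where 2.23% of all genes were. *Il1rl1* (ENSMUSG00000026069, chromosome 1, 40429570 to 40465415), which encodes ST2, the receptor of IL-33, was at 54.6, 53.8 and 46.9 CPM in NT and 24.3, 20.3 and 24.01 CPM in IFT88siRNA. Its log2 fold change was −1.18 (standard error 0.0693, adjusted p = 1.22e-10), and the IFT88siRNA libraries all lay far below the NT libraries. *Il1rap*, the accessory chain shared by the receptors of IL-1 and IL-33, was at 92.7, 97.5 and 92.9 CPM in NT and 78.2, 70.3 and 77.8 CPM in IFT88siRNA. The groups did not overlap, and the log2 fold change of −0.32 (standard error 0.0474, adjusted p = 3.98e-05) was below the 1.5-fold threshold. The signalling receptor *Il1r1* was at 0.037 (adjusted p = 0.698). The adaptor *Myd88* was higher at 0.29 (adjusted p = 0.0001802) and the kinase *Irak1* lower at −0.22 (adjusted p = 0.00104), neither past the fold threshold.

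None of 26 tested genes for NF-κB subunits, inhibitors and regulators was called, where 2.23% of all genes were, and the median of the list was −0.0093. At an adjusted p under 0.05 and any fold, 8 were lower and 2 higher, where 9.43% and 10.1% of all genes were. *Rela*, the p65 subunit, was at 142, 135 and 138 CPM in NT and 103, 108 and 107 CPM in IFT88siRNA (−0.38, adjusted p = 9.43e-07). The inhibitors *Tnfaip3* (A20) and *Nfkbiz* were at −0.45 and −0.39 (adjusted p = 3.9e-05 and 2.01e-05), while *Nfkbia* (IκBα) was at 0.062 (adjusted p = 0.442). In medium only, 1 of 18 tested inflammatory mediators was called, the neutrophil chemokine *Cxcl1*, at 2.52, 2.88 and 2.205 CPM in NT and 1.39, 1.83 and 1.598 CPM in IFT88siRNA (−0.66, adjusted p = 0.0125). The call of *Cxcl1* was lost without NT replicate 2 or IFT88siRNA replicate 1. *Ptgs2*, which makes prostaglandins, was at −0.45 (adjusted p = 1.56e-06). *Lif*, a cytokine of the IL-6 family, was at 33.2, 35.1 and 31.8 CPM in NT and 24.6, 25.4 and 26.2 CPM in IFT88siRNA (−0.39, standard error 0.0595, adjusted p = 5.25e-05), without overlap and below the fold threshold. The chemokine *Cxcl12* was higher at 0.41 (adjusted p = 3.92e-05). Altogether 7 mediators were lower and 1 higher at any fold, where 9.43% and 10.1% of all genes were. *Tslp*, an epithelial and stromal cytokine outside that list, was at 15.9, 16.2 and 16.5 CPM in NT and 9.26, 7.896 and 8.23 CPM in IFT88siRNA (−0.93, adjusted p = 4.16e-08).

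**Figure D3:**
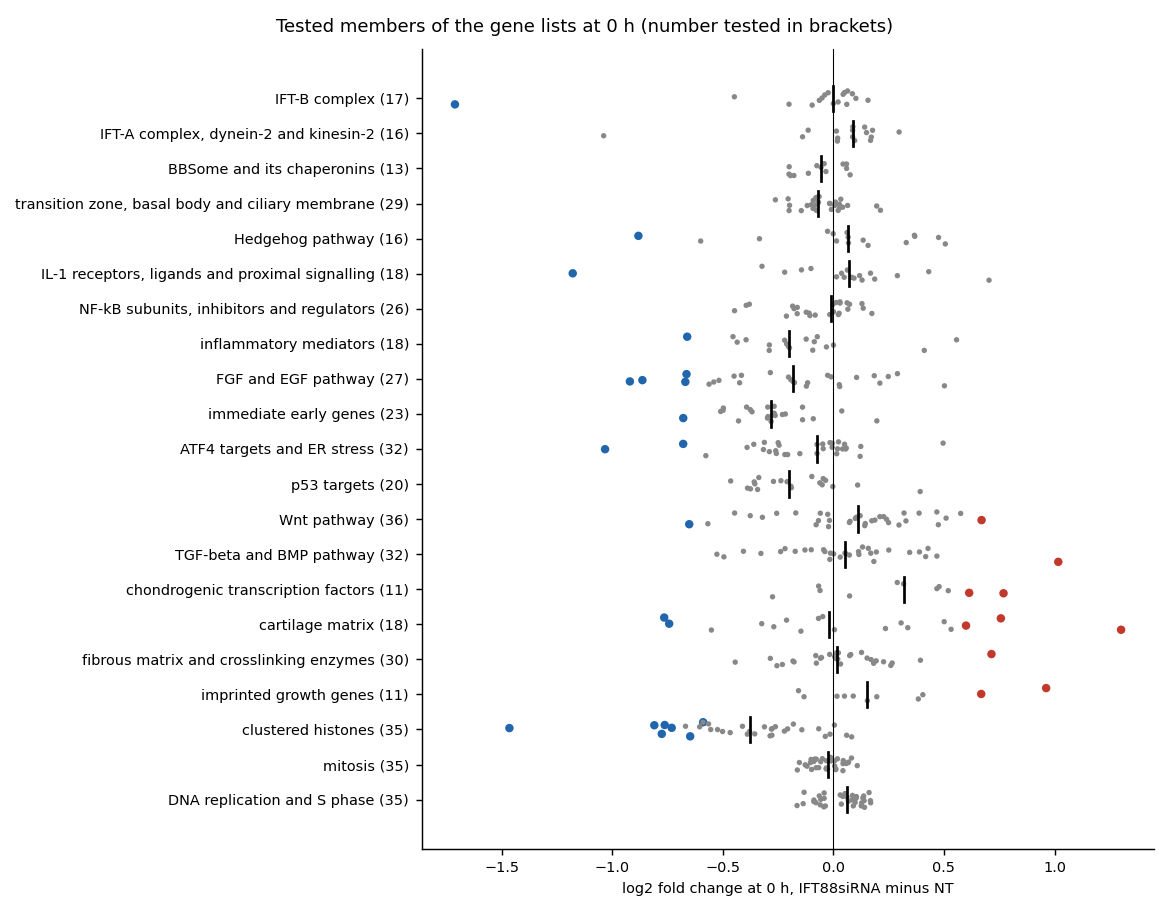
Log2 fold change at 0 h (x axis) of each tested member of 21 gene lists (y axis), with called members in red (higher) or blue (lower), other members in grey and the median as a black bar. In the 4 uppermost lists, of ciliary genes, *Ift88* is the single coloured point and *Kif17* (−1.04) the other point far from 0, and the medians of the early gene and clustered histone lists lie at −0.28 and −0.38.

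Among chondrogenic transcription factors, 2 of 11 tested genes rose and 0 fell, where 0.674% of all genes rose. *Sox9* (ENSMUSG00000000567, chromosome 11, 112782224 to 112787760), the master regulator of the chondrocyte lineage, was at 25.5, 24.1 and 23.4 CPM in NT and 36.02, 39.6 and 36.3 CPM in IFT88siRNA (0.61, standard error 0.0607, adjusted p = 1.85e-07). Without replicate 2 of IFT88siRNA its log2 fold change was 0.57 (adjusted p = 8.56e-11), just under the 1.5-fold threshold. *Sox4* (ENSMUSG00000076431, chromosome 13, 28948919 to 28953713), a SoxC factor of skeletal progenitors, was at 55.05, 56.7 and 47.2 CPM in NT and 76.4, 111 and 83.4 CPM in IFT88siRNA (0.77, standard error 0.0921, adjusted p = 2.9e-06). Replicate 2 was the highest library, and without it the log2 fold change was 0.59 (adjusted p = 1.01e-13). The partners of SOX9, *Sox5* and *Sox6*, had few counts, with values of 0.48 (adjusted p = 0.129) and 0.52 (adjusted p = 0.0532). *Nkx3-2*, a repressor of chondrocyte hypertrophy, and *Scx*, a tendon factor, were higher without reaching the fold threshold (0.47, adjusted p = 0.0155, and 0.32, adjusted p = 0.00924). *Runx1* was lower (−0.28, adjusted p = 0.000304) and *Runx2* was at 0.073 (adjusted p = 0.328). In a bulk sample, fewer cells of a type and less RNA per cell cannot be told apart.

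Cartilage matrix genes moved in both directions: 3 of 18 tested genes rose and 2 fell, where 0.674% of all genes rose and 1.56% fell. The falls were fibrillar collagen chains of cartilage. *Col2a1* (ENSMUSG00000022483, chromosome 15, 97975602 to 98004695), the chain of type II collagen, was at 24.1, 19.9 and 21.7 CPM in NT and 13.7, 12.3 and 12.6 CPM in IFT88siRNA (−0.76, standard error 0.0791, adjusted p = 3.52e-07), with every IFT88siRNA library lower. *Col11a2* was at 8.68, 7.39 and 7.84 CPM and 4.37, 5.52 and 4.41 CPM (−0.74, adjusted p = 7.65e-05). *Col9a3* was at −0.55 (adjusted p = 0.000868), just short of the fold threshold, whereas *Col11a1*, the other large chain of type XI collagen, was higher at 0.24 (adjusted p = 0.000727). The rises were of non-collagenous proteins. *Fmod* (fibromodulin), a small leucine-rich proteoglycan that binds collagen fibrils, was at 9.85, 9.95 and 8.87 CPM in NT and 17.5, 16.1 and 14.9 CPM in IFT88siRNA (0.76, adjusted p = 1.25e-06). *Comp*, cartilage oligomeric matrix protein, was at 12.5, 12.5 and 12.4 CPM and 18.4, 20.5 and 17.8 CPM (0.60, adjusted p = 6.75e-06), and at 0.54 (adjusted p = 4.56e-07) without replicate 2 of IFT88siRNA. *Lum* (lumican), another proteoglycan of that family, rose from a very low level, 0.607, 0.456 and 0.441 CPM, to 1.28, 1.32 and 1.13 CPM (1.30, adjusted p = 0.001603).

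In the fibrous matrix, 1 of 30 tested genes was called, near the 2.23% of all genes. At an adjusted p under 0.05 and any fold, 8 were higher and 6 lower, where 10.1% and 9.43% of all genes were. *Col3a1* (ENSMUSG00000026043, chromosome 1, 45311538 to 45349706), the chain of type III collagen, had a mean of 9795 counts, the highest of any called gene. It was at 311, 317 and 291 CPM in NT and 517, 494 and 498 CPM in IFT88siRNA (0.71, standard error 0.0411, adjusted p = 1.22e-10). The chains of type I collagen, *Col1a1* and *Col1a2*, were at −0.08 (adjusted p = 0.293) and 0.13 (adjusted p = 0.0174). Of 29 tested matrix proteases and inhibitors, 1 was called, a rise, again near the share of all genes, and at any fold 9 were higher and 4 lower. *Adamts9*, a secreted protease that cuts aggrecan and versican, was at 8.68, 9.903 and 8.57 CPM in NT and 16.8, 20.1 and 18.1 CPM in IFT88siRNA (1.01, standard error 0.0882, adjusted p = 2.87e-08). *Adamtsl1*, a relative without a protease domain, was at 22.4, 21.8 and 20.1 CPM and 40.99, 43.8 and 38.05 CPM (0.93, adjusted p = 1.09e-09).

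Wnt and BMP genes held few calls. *Rspo3*, a secreted amplifier of Wnt signals, rose from 44.03, 50.3 and 48.1 CPM to 80.1, 71.3 and 75.2 CPM (0.67, adjusted p = 1.15e-08), and the ligand *Wnt10a* fell from 3.13, 2.88 and 3.33 CPM to 2.07, 1.79 and 2.07 CPM (−0.65, adjusted p = 0.00535; −0.58 without IFT88siRNA replicate 2). They were the 2 called of 36 tested Wnt genes, where 2.23% of all genes were called. At any fold 16 were higher and 3 lower, against 10.1% and 9.43% of all genes. The Frizzled receptors *Fzd1*, *Fzd2*, *Fzd4*, *Fzd5*, *Fzd7* and *Fzd8* were all higher without reaching 1.5-fold, with log2 fold changes from 0.25 to 0.47, and *Fzd6* was at −0.067 (adjusted p = 0.376). In the TGF-β and BMP list, 1 of 32 tested genes was called, near the 2.23% of all genes, and at any fold 9 were higher and 5 lower. *Gdf5*, a growth factor of the joint interzone, was at 0.654, 0.548 and 0.441 CPM in NT and 1.13, 1.4 and 0.819 CPM in IFT88siRNA (1.02, adjusted p = 0.0173), a low level at which leaving out NT replicate 2, NT replicate 3 or IFT88siRNA replicate 2 ended the call. Among imprinted growth genes 2 of 11 tested rose, where 0.674% of all genes rose. *Mest* (ENSMUSG00000051855, chromosome 6, 30723547 to 30748465), which is expressed from the paternal allele, was at 27.4, 31.5 and 29.3 CPM in NT and 55.7, 57.3 and 58.9 CPM in IFT88siRNA (0.96, standard error 0.0563, adjusted p = 1.22e-10). The long non-coding RNA *H19* was at 1.68, 1.83 and 1.67 CPM and 2.94, 2.53 and 2.77 CPM (0.67, adjusted p = 0.006798), and was not called by DESeq2 (adjusted p = 0.0536) or on log2(TPM + 1), at 0.25 (limma, adjusted p = 0.229).

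The largest rises with a mean of at least 50 counts were led by a gene that rests on 1 library. *Gm23935*, a short RNA annotated as a miRNA gene (chromosome 16, 11144125 to 11144181), was at 105, 97.7 and 72.4 CPM in NT and 144, 692 and 179 CPM in IFT88siRNA, with a log2 fold change of 1.88 (adjusted p = 0.000392) that was 0.82 without replicate 2. *Scand1*, a SCAN-domain protein, went likewise from 10.4, 8.26 and 6.57 CPM to 11.7, 32.4 and 13.5 CPM (1.18) and was no longer called without replicate 2, at 0.58. *B3gnt2*, an enzyme of poly-lactosamine synthesis, went from 1.26, 1.19 and 1.47 CPM to 2.45, 4.59 and 2.11 CPM (1.22), and was at 0.81 without that library. Its exons overlap those of *Gm12057* and *Gm28048* on the same strand, and its counts leave out the shared stretches. On log2(TPM + 1) its difference was 0.14 (limma, adjusted p = 0.391), with 25.5 to 33.4 TPM in NT and 32.1 to 33.2 TPM in IFT88siRNA. By contrast, *Scara5* (ENSMUSG00000022032, chromosome 14, 65666403 to 65764826), a scavenger receptor that binds ferritin, was raised evenly, from 7.61, 7.62 and 6.27 CPM in NT to 20.8, 19.8 and 18.5 CPM in IFT88siRNA (1.46, standard error 0.0887, adjusted p = 1.89e-10).

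The other genes of this group had log2 fold changes from 0.98 to 1.12. *Ptgfr*, the receptor of prostaglandin F2α, was at 1.59, 3.19 and 2.74 CPM in NT and 5.68, 5.06 and 5.65 CPM in IFT88siRNA (adjusted p = 4.27e-05). *Igfbp5*, an IGF-binding protein of skeletal cells, was at 5.696, 5.704 and 5.14 CPM and 11.3, 11.4 and 9.82 CPM (adjusted p = 3.67e-07). *Fbln7*, a fibulin of the matrix, and *Olfml2a*, a secreted olfactomedin-like protein, rose by 0.998 and 1.02. *Bmf*, a pro-apoptotic BCL2 family member, *Gria1*, a glutamate receptor subunit, and *Gm765* rose by 0.99, 1.02 and 1.03. No overlap between NT and IFT88siRNA was a condition for naming these rises. On log2(TPM + 1), *Ptgfr*, *Olfml2a* and *Bmf* were at 0.66, 0.56 and 0.36 and did not pass limma's test (adjusted p = 0.0774, 0.0605 and 0.289). Rises at high counts, besides *Col3a1*, *Sox4* and *Rspo3*, were those of *Penk* (proenkephalin; 110.4, 115 and 107 CPM and 191, 178 and 159 CPM, 0.67) and *Nov* (the matricellular protein CCN3; 80.8, 88.9 and 81.3 CPM and 139, 138 and 129 CPM, 0.69).

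After *Ift88*, the largest fall with a mean of at least 50 counts was that of *Atg9b*, an autophagy protein, from 26.8, 23.8 and 24.4 CPM in NT to 10.4, 11.2 and 8.93 CPM in IFT88siRNA (−1.30, adjusted p = 2.98e-10). Its exons overlap *Nos3* on the opposite strand, so reads of the shared stretch were counted for neither gene. *S1pr3*, a receptor of sphingosine 1-phosphate, fell from 3.92, 3.29 and 2.65 CPM to 1.54, 1.52 and 1.598 CPM (−1.08, adjusted p = 0.000137). *Slc7a3*, a transporter of cationic amino acids, and *Adam8*, a membrane metalloprotease, fell by 0.92 and 0.86 on the log2 scale. *Cd300lb*, *Lrrtm2* and the long intergenic RNA *Gm42743* fell by 0.90, 0.87 and 0.84. No overlap between the groups was a condition for naming these falls. *Slc7a3*, *Cd300lb* and *Lrrtm2* did not pass limma's test on log2(TPM + 1), at −0.58, −0.66 and −0.42 (adjusted p = 0.0996, 0.0873 and 0.132). At high counts, *Ergic2*, a protein of the route from the endoplasmic reticulum to the Golgi, fell from 123, 128 and 133 CPM to 85.3, 76.5 and 82.6 CPM (−0.65, adjusted p = 1.86e-09). *Pcdh19*, a protocadherin, was at −0.64 and the non-coding *3110039I08Rik* at −0.64.

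Of 35 tested histone genes of the replication-dependent clusters, whose transcripts mostly lack a poly(A) tail, 7 fell and 0 rose, where 1.56% of all genes fell, and 32 had values below 0, with a median of −0.38. Of the 7, 5 were among the 16 histone genes with a mean of at least 50 counts. In all genes the share of falls was 4.79% under 20 counts, 5.096% from 20 to 50 and 2.61% from 50 to 200. The linker histones *Hist1h1a*, *Hist1h1b*, *Hist1h1d* and *Hist1h1e* were at −0.73, −0.59, −0.76 and −0.65, while *Hist1h1c* was at 0.005 (adjusted p = 0.951). The core histones *Hist1h2be*, *Hist2h4* and *Hist1h4c* were at −0.78, −0.81 and −1.46. *Hist1h4c* had a mean of 11.5 counts, with 18, 15 and 15 in NT and 9, 7 and 5 in IFT88siRNA. It passed the filter on low counts through the NT libraries alone, so its entry and its fall are not independent. Cluster genes are near-identical copies, and reads that map to several places are not counted under the default settings, so single values are uncertain. The exons of *Hist1h2be* and *Hist1h1e* also overlap. Of 35 tested genes of mitosis and 35 of DNA replication and S phase, 0 were called in each list, with medians of −0.026 and 0.061. Of all genes, 2.23% were called. Among S phase genes 9 were higher and 0 lower at any fold, and among mitosis genes 0 were higher and 4 lower. Of all genes, 10.1% were higher and 9.43% lower at any fold, and 4 of the 35 mitosis genes is near that share.

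Single calls stood in the YAP list (*Ankrd1*, −0.61, 12 tested) and the clock list (*Ciart*, −0.61, 19 tested), and both were lost without NT replicate 3 and on log2(TPM + 1). Among markers of other cell types, 1 call each was found for the osteoblast (*Dmp1*, −0.63, 3 tested), leukocyte (*Lyz2*, 0.64, 2 tested), epithelial (*Krt5*, −0.86, 3 tested) and adipocyte (*Lpl*, 0.92, 4 tested) lists. Each of these 4 had a mean under 50 counts and lost its call without 3 or more of the 6 libraries in turn, and *Lpl* was at 0.011 on the scale of log2(TPM + 1). None was called of the lists for cytosolic ribosomal proteins (82 tested), nuclear subunits of oxidative phosphorylation (77), interferon-stimulated genes (42), glycolysis and hypoxia (31), cholesterol synthesis (25), tubulins (22), integrins and cadherins (21), the mitochondrial genome (20), oxidative stress defence (19), G1 cyclins and CDK inhibitors (17), contractile genes (16), the RNA interference machinery (12), Notch (12) and hyaluronan (9). At an adjusted p under 0.05 and any fold, 12 interferon-stimulated genes were lower and 2 higher, and 10 genes of oxidative stress defence and 13 subunits of oxidative phosphorylation were higher, with 0 and 1 lower. Of all genes, 2.23% were called, and at any fold 9.43% were lower and 10.1% higher. For the subunits, 13 of 77 is not far from the share of all genes that were higher.

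Genes with few counts fell more often than genes with many. Of the 238 falls, 155 were of protein-coding genes and 83 of all other classes, which is 1.21% of 12825 and 3.39% of 2449 genes tested. Among long intergenic RNAs 25 of 372 fell and 3 rose, among antisense RNAs 16 of 425 fell and 1 rose, and among transcribed regions of the annotation class TEC, which awaits experimental proof, 15 of 269 fell and 0 rose. These classes had median counts of 22.2 to 29.2, against 805.5 for protein-coding genes. Within protein-coding genes the share of falls went from 5.94% under 20 counts to 0.0884% over 1000 counts. Under 200 counts the other classes did not have the larger share at like counts: it was 3.76% against 5.94% under 20 counts, 4.68% against 5.46% from 20 to 50 and 2.51% against 2.65% from 50 to 200. Over 1000 counts, 2 of 67 genes of the other classes fell (2.99%). The share of all counts on intergenic, antisense, TEC, sense intronic and processed transcripts was 0.693% to 0.709% in NT and 0.611% to 0.634% in IFT88siRNA. Depth differed between the groups in the same libraries. With every library thinned to the smallest total, 220 genes fell and 105 rose.

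**Figure D4:**
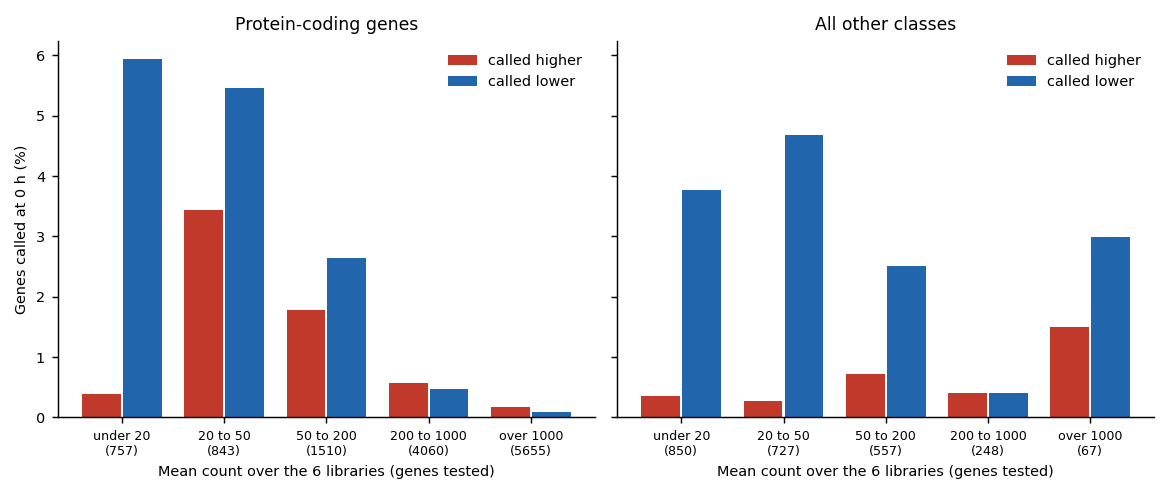
Share of tested genes called at 0 h (y axis, %) by mean count over the 6 libraries (x axis, with the number of genes tested), for protein-coding genes (left) and all other classes (right). Red bars are genes called higher and blue bars genes called lower, and the blue bars exceed the red ones in every bin under 200 counts in both panels.

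The later time points share no library with 0 h, so they repeat the siRNA contrast in IL-1β-treated cells. Falls were seen again most often at 1 h: of 176 falls tested there, 54 were called lower (30.7%), where 2.47% of all genes tested were. By mean count at 0 h, they were 28 of 81 falls at 50 counts or more and 26 of 95 under 50. The shares of all genes given here are not matched for count. Rises were seen again most often at 24 h: of 89 tested, 29 were called higher (32.6%) against 0.552% of all genes. For falls the counts at 2, 4, 8 and 24 h were 17 of 178, 8 of 189, 16 of 203 and 26 of 206, where 0.462%, 0.399%, 0.613% and 0.598% of all genes were lower. For rises at 1, 2, 4 and 8 h they were 5 of 102, 2 of 101, 2 of 96 and 5 of 100, where 0.182%, 0.0339%, 0.0338% and 0.0791% of all genes were higher. The median log2 fold change of the rises was 0.16, 0.13, 0.057, 0.24 and 0.52 from 1 to 24 h, and that of the falls was −0.55, −0.34, −0.39, −0.44 and −0.32. Opposite calls were found for 3, 1, 1, 0 and 1 of the genes.

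Only *Ift88* among the falls and *Scara5* among the rises were called in the same direction at all 5 later time points. *Scara5* was at 1.12, 0.90, 0.80, 1.22 and 0.91 from 1 to 24 h. *Il1rl1* was called at 4 of them, at −1.01, −0.83, −0.58, −1.11 and −1.06, and so was *Ergic2*, whose values lay between −0.70 and −0.54. *Fgf2* stayed between −0.86 and −0.36, and *Il1rap* between −0.55 and −0.41 without being called at any later time point. *Mest*, *Sox9* and *Nov* had lower values from 1 to 8 h than at 0 h and 24 h. *Mest* was at −0.0052, 0.083, −0.04, 0.56 and 1.28 from 1 to 24 h. *Sox9* was at −0.068, −0.24, 0.28, 0.28 and 0.74, and *Nov* at 0.17, 0.12, 0.043, 0.36 and 1.003. *Rspo3* and *Adamts9* were near 0 at 24 h, at −0.034 and 0.0094, and *Ptgfr* was at −0.72. Among the falls, *Ereg* was at 0.017 at 1 h and −0.86 at 24 h, and *Atf3* at 0.087 and −0.31.

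**Figure D5:**
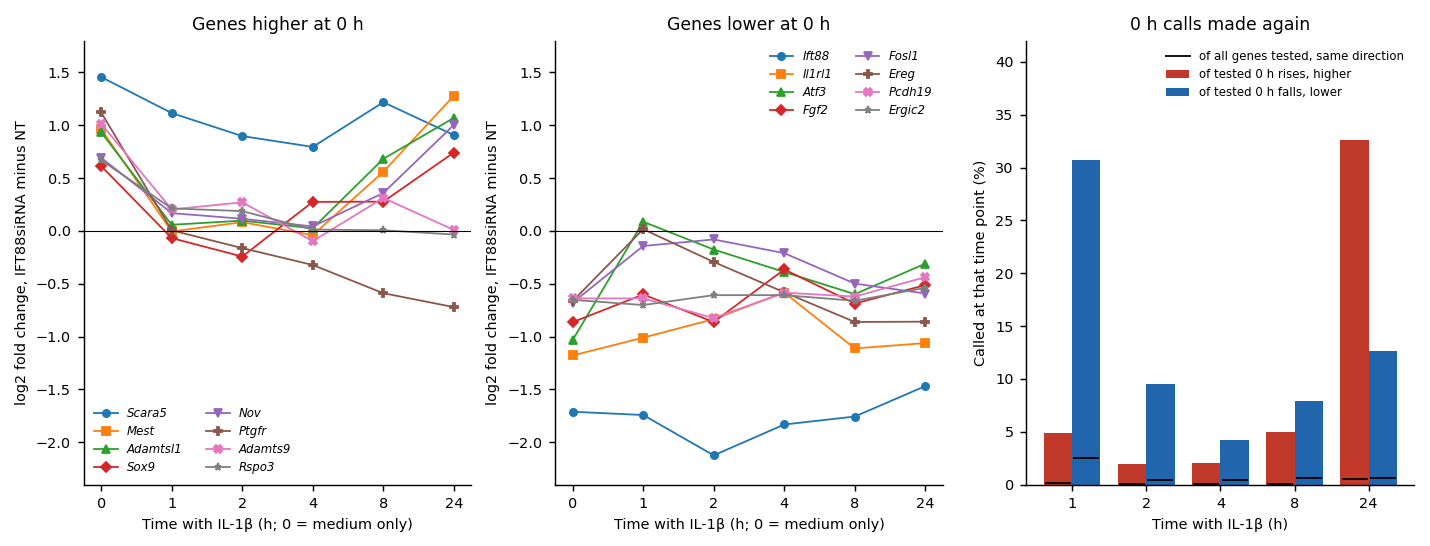
Log2 fold change of IFT88siRNA against NT (y axis) at each time point (x axis, h) for 8 genes higher (left) and 8 genes lower (middle) at 0 h, and the share (y axis, %) of tested 0 h rises (red) and falls (blue) called again in the same direction at each later time point (right), with black lines for the share of all genes tested. *Scara5* and *Ift88* stay apart from 0 throughout, and the bars are highest for falls at 1 h (30.7%) and for rises at 24 h (32.6%).

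As groups, the lists followed different courses, described here by their medians over the members tested at 0 h and at the later time point. The early genes were at −0.28 at 0 h, −0.022 at 1 h, −0.038 at 2 h, −0.22 at 4 h, −0.29 at 8 h and −0.17 at 24 h. At 8 h all 23 early genes had values below 0. The p53 targets were at −0.20 at 0 h, 0.092 at 1 h, 0.13 at 8 h and −0.25 at 24 h. The clustered histones were lowest at 1 h, with a median of −0.77 over 25 tested genes, against −0.38 over 35 at 0 h and −0.19 over 31 at 24 h. As the members differ, a change of members and a change of values cannot be told apart in these medians. The chondrogenic transcription factors were at 0.32 at 0 h and −0.15, −0.22, −0.11, 0.11 and −0.021 thereafter.

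Whether the siRNA difference itself changed after 0 h was tested for each gene with the 5 later differences against the 0 h difference in all 36 libraries. The change had an adjusted p under 0.05 in 924 of 16710 genes tested (5.53%). The 0 h libraries enter this test as well as the choice of the genes named here, and so no share among the 0 h calls is read from it. The smallest adjusted p-values among genes called at 0 h were those of *Mest*, *Sox9*, *Ereg*, *Fosl1*, *Adamtsl1* and *Adamts9*. *Ift88*, *Scara5*, *Fgf2* and *Il1rap* had adjusted p-values of 0.42, 0.294, 0.127 and 0.32.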

How the data were processed

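Poly(A) RNA of the 6 libraries at 0 h (3 NT, 3 IFT88siRNA) was analysed, with the 30 later libraries as repeats. Per the study's methods and the submitters' processing notes, the authors aligned the reads to GRCm38 with HISAT2 2.1.0. They deposited whole-number counts per gene from featureCounts (Subread 1.6.3, default settings), without normalization. These settings use no strand and leave out reads that map to several places or lie on exons of several genes. The deposited TPM values are per gene from Salmon 0.9.1, and served for marker sums and as an alternative. Tests on counts were run with edgeR 4.0.16 in R 4.3.3 (TMM, filterByExpr, two-sided quasi-likelihood F-tests, Benjamini-Hochberg adjustment), each time point alone. The standard error is the absolute log2 fold change over the square root of its F-statistic. Depths of 20223532 to 26699475 counts limit precision mainly for genes under 50 counts. Coordinates and exon overlaps are from the GENCODE reference annotation for GRCm38.

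Groups came from the labels. The members and the 38 gene lists and 8 marker lists were chosen with earlier results of these data known. Lists were described by counts and medians, without a test. Genes are named by a rule: *Ift88*; 4 genes that the study names at 0 h (*Il1rap*, *Sox9*, *Sox4*, *Lif*); the 12 largest rises and 12 largest falls among called genes with no overlap and a mean of at least 50 counts; the 6 called genes with the highest counts in each direction; called members of lists, at most 4 a list; genes called at every time point; and the 6 called genes with the smallest adjusted p for a change after 0 h. Other list members were named after their values were seen. Same-numbered libraries did not deviate together (correlations of −0.22, −0.15 and 0.11), and blocking on the number was an alternative only. The other alternatives were DESeq2 1.42.0, scaling by DESeq2's size factors or by the upper quartile, no filter on low counts, no fold threshold, all 36 libraries in 1 model, leaving out each library, and limma 3.58.1 on log2(TPM + 1) (minimum 1 TPM in 3 libraries), on log2(TPM + 0.1) or without that filter. A minimum mean of 50 counts and thinning to 1 depth were added after seeing the data. The steps were tested on simulated data. Python 3.11.15 and matplotlib 3.10.9 were used for the figures. The qPCR, protein and imaging data were not analysed here.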

Additional observations from a re-analysis of the deposited data

Results flagged for a closer look

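Listed here are the 30 named genes with an adjusted p under 0.05 for a change of the siRNA difference after 0 h. The test set the 5 later differences against that at 0 h in all 36 libraries (edgeR's quasi-likelihood test). Of all 16710 genes tested, 924 (5.53%) passed it. The naming rule took 6 genes by the smallest adjusted p of this same test, so the count of 30 is not read as a result. The 0 h libraries chose these genes and also enter the test, so a difference that was large at 0 h by the spread between libraries would be found to change. No cause was tested.

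Among genes higher at 0 h, 8 had lower values at each time point from 1 to 8 h than at 0 h and 24 h: *Mest* (adjusted p = 1.49e-08), *Sox9* (adjusted p = 3.49e-08), *Adamtsl1* (adjusted p = 1.38e-06), *Comp* (adjusted p = 2.69e-05), *Nov* (adjusted p = 8.8e-05), *Gm765* (adjusted p = 0.000284), *Fmod* (adjusted p = 0.000913) and *Sox4* (adjusted p = 0.00360). Their log2 fold changes lay between −0.24 and 0.28 from 1 to 4 h and between 0.20 and 0.77 at 8 h. *Mest* had log2 fold changes of 0.96 at 0 h, −0.040 at 4 h and 1.28 at 24 h, and *Comp* 0.60, 0.28 and 0.87. *Adamts9* (adjusted p = 1.65e-06), *Rspo3* (adjusted p = 9.92e-05) and *Lum* (adjusted p = 0.00233) were higher at 0 h and at 0.0094, −0.034 and −0.28 at 24 h. *Ptgfr* (adjusted p = 3.67e-05) went from 1.12 at 0 h to −0.72 at 24 h. *H19* (adjusted p = 0.000264) was at 0.67 at 0 h and −0.76 at 1 h, and *Gdf5* (adjusted p = 0.0438) at 1.02 and −0.34. The other rises were *Penk* (adjusted p = 2.57e-05), *Igfbp5* (adjusted p = 5.01e-05), *Col3a1* (adjusted p = 0.00163), *Gria1* (adjusted p = 0.0122), *Bmf* (adjusted p = 0.0240) and *Olfml2a* (adjusted p = 0.0261). *Gm23935* (adjusted p = 0.00761) and *B3gnt2* (adjusted p = 0.0147) had the highest 0 h value in IFT88siRNA replicate 2.

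Among genes lower at 0 h, *Ereg* (adjusted p = 1.43e-07), *Fosl1* (adjusted p = 8.71e-07), *Atf3* (adjusted p = 5.64e-05) and *Hbegf* (adjusted p = 0.00109) had smaller differences at 1 h, where their log2 fold changes were 0.017, −0.14, 0.087 and −0.25. *Lif* (adjusted p = 0.00219) was at −0.39 at 0 h and −0.71 at 1 h. The others were *Cxcl1* (adjusted p = 0.0197), *Il1rl1* (adjusted p = 0.0392) and *Cd300lb* (adjusted p = 0.0458).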

How the results depend on the processing

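*Ift88* kept its direction and its call under every alternative run, with log2 fold changes from −1.74 to −1.31. The count of 341 genes was 340 with DESeq2's size factors, 356 with upper-quartile scaling, 406 without a filter on low counts, 261 with all 36 libraries in 1 model, 325 after thinning to 1 depth and 275 to 368 without each library in turn. DESeq2 called 165 genes (66 higher, 99 lower), log2(TPM + 1) 123 (34 and 89), log2(TPM + 0.1) 143 (41 and 102), log2(TPM + 1) without a filter 75 (26 and 49), genes with a mean of at least 50 counts 147 (66 and 81), and no fold threshold 2979 (1538 and 1441). Of the 123 genes called on log2(TPM + 1), 65 were among the 341. Falls were 69.8% of the calls, 55.1% at 50 counts or more and 60.9% with all 36 libraries. The 0 h calls called again with DESeq2 numbered 23 at 1 h, 2 at 4 h and 31 at 24 h. Without a filter on low counts they numbered 29, 18 and 41 at 2, 4 and 8 h, and without the fold threshold 1078, 238, 278, 363 and 788 from 1 to 24 h. The cause of these moves was not tested, other than that fewer genes enter at 50 counts.

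With the replicate block, 320 genes were called (103 higher, 217 lower), 313 of them among the 341, and only *Hhip* lost its call among the named genes. The replicate numbers share no stated batch, and the libraries did not each correlate best with their own number. Of 977 values of the 59 other named genes called at 0 h, 834 kept direction and call, 143 kept the direction without the call and 0 reversed. *Lif* and *Il1rap* had no call to keep. DESeq2 lost the calls of *Hist2h4*, *Cxcl1*, *Dmp1*, *Lyz2*, *H19*, *Lpl*, *Scand1* and *Gm23935*, and gave no adjusted p to *Hist1h4c*, *Hhip*, *Krt5*, *Gdf5* and *Lum* or to 108 of the 341 genes in all. On log2(TPM + 1), *Sox9* (0.55), *Sox4* (0.54), *Col3a1* (0.55) and *Comp* (0.44) kept an adjusted p under 0.05 and fell below 1.5-fold. *Ankrd1* lost its call without NT replicate 3 and on log2(TPM + 1), and *Ciart* also without IFT88siRNA replicate 3, without a filter on low counts and on log2(TPM + 0.1). Low depth limits the genes under 50 counts, where 194 of the calls lie.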
